A study of Mus musculus with 128 samples.

Results

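Dbp, Tef, Hlf and Nfil3 encode 4 clock-controlled basic leucine zipper (bZIP) factors, and their transcripts were followed in mouse liver through the hours after a meal. The 4 genes were taken by name from a table of 35275 genes, and all 4 passed the filter that left 16886 genes for testing. Male wild type mice of 2 inbred strains, BALB/c and C57BL6/J, were bought at 8 weeks of age and trained for 1 week to eat only in an evening window. They were then fasted for 21 h, and drinking water was withheld from 4 pm. Chow, with 10% of its calories from fat and 64.5% from carbohydrate, was returned at 7 pm together with a drink of 20% glucose, 20% sucrose, 20% fructose or plain water. Livers were taken from fasted mice at 0 h (7 pm) or after 3, 6 or 12 h of feeding. Of the 26 groups 24 held 5 libraries and 2 held 4, both of them BALB/c at 12 h, one on glucose and one on fructose. Every mouse had the same training, fast and chow, and the 0 h groups had no drink arm of their own. Time since feeding and time of day advanced together and cannot be told apart. The labels do not say outright that each library is a separate mouse, so a p-value here speaks only of the spread among libraries, which may be technical.

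Dbp, Tef and Hlf form the PAR family, named for a region rich in proline and acidic residues beside the bZIP domain, and they activate genes that carry a D-box element. Nfil3 (E4BP4) binds the same element and represses it. In mouse liver, Dbp transcription is driven through E-boxes by the CLOCK and BMAL1 (Arntl) pair, Nfil3 is repressed by the nuclear receptors REV-ERB alpha and beta (Nr1d1, Nr1d2), and genes of haem synthesis and drug metabolism are among the D-box targets. In mm10, Dbp (ENSMUSG00000059824) lies on the plus strand of chromosome 7, 45705088 to 45710155, and Tef (ENSMUSG00000022389) on the plus strand of chromosome 15, 81802421 to 81826861. Hlf (ENSMUSG00000003949) lies on the minus strand of chromosome 11, 90336536 to 90390895, and Nfil3 (ENSMUSG00000056749) on the minus strand of chromosome 13, 52967209 to 52981073.

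The promoter letters that name these inputs are shown because all 4 transcripts moved with feeding time. RefSeq windows of the GRCm38.p6 build, from 250 bases before to 50 bases after each annotated start, were searched on both strands for the E-box CACGTG, its variant CACGTT, the D-box forms TTATGTAA and TTACGTAA, and the REV-ERB and ROR half-site TAGGTCA. The E-box and its variant differ in the last letter, and the 2 D-box forms differ in 1 letter. Both Tef windows held CACGTG, which 7.15% of all 32851 windows hold, and the Nfil3 window held TAGGTCA on the opposite strand, which 2.61% hold. CACGTT was in 4.68% of windows, TTATGTAA in 0.938% and TTACGTAA in 0.119%, and the single windows of Dbp and Hlf held none of these letters. In the 30-base stretches, capitals mark the E-box or the half-site.
Tef, plus strand, chr15:81802534-81802563: gtgctgtggctcCACGTGctgcagctggca
Tef, plus strand, chr15:81811264-81811293: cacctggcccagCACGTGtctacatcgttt
Nfil3, minus strand, chr13:52981033-52981062: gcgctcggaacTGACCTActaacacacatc
A match is a description of the letters and was not tested for binding.

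Total counts were 18541545 to 43118895 per library, and levels are given as CPM, counts set to a common depth after TMM scaling of library sizes. At these depths the lowest count of a member was 5 for Dbp, 337 for Hlf, 355 for Nfil3 and 473 for Tef. The 9 hepatocyte markers, among them Alb and Apoa1, summed to 51667 to 142082 CPM, so every library held hepatocyte RNA. In bulk liver, fewer cells of a type and less RNA per cell cannot be told apart. The sum of 12 skeletal muscle markers differed with time: on water its median was 242 CPM at 0 h (range 1.63 to 372), then 69.8 CPM at 3 h (2.86 to 227), 241.5 CPM at 6 h (2.27 to 413) and 2.29 CPM at 12 h (1.21 to 124). At 6 h on water the sum of 7 adrenal markers reached 653 CPM in 1 library (median 3.58) and that of 6 kidney markers 948.5 CPM (median 0.188). The part of these tissues in the members' values was not tested. In all, 13 libraries had a profile nearer to another time of their strain than to their own, most of them replicate 4 at 3 h or 6 h. Single libraries touch several results. C57BL6/J water 0 h replicate 2 had a profile nearer to 3 h than to 0 h, with the gluconeogenic enzyme Pck1 at 160 CPM (others of the group 3490 to 5151). BALB/c water 12 h replicate 1 had Per3 at 21.5 CPM (others 0.699 to 2.17), Ciart at 8.28 CPM (0.425 to 0.674) and Npas2 at 1.06 CPM (9.83 to 17.6). Outside the clock genes it had Igfbp1 at 1939 CPM (15.1 to 69.5) and Pck1 at 2917 CPM (393 to 2076), and its hepatocyte sum was 52418 CPM. Replicate 2 of the same group held the muscle sum of 124 CPM and had Nr1d1 at 59.5 CPM (replicates 3, 4 and 5 had 7.55 to 16.0).

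On water, the 3 activators ended lower at 12 h than in fasted livers and the repressor Nfil3 ended higher. Of the activators Dbp had the largest estimated change, Tef the next and Hlf the smallest. Of the 4 genes, 2 passed the test at 3 h against 0 h, where 25.4% of all tested genes did. All 4 passed at 6 h (28.8% of all genes) and at 12 h (17.6%). The test was the quasi-likelihood test of edgeR with Benjamini-Hochberg adjustment over the 16886 genes, at an adjusted p of 0.05, and log2 fold changes are the mean of the effects in both strains.

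Dbp, the member with the strongest known daily swing, stood at 28.2, 18.1, 34.2, 12.6 and 32.0 CPM in the BALB/c libraries at 0 h. In C57BL6/J at 0 h it stood at 46.2, 2.05, 70.9, 42.0 and 43.3 CPM, the second value being replicate 2. At 3 h the values were 2.45, 1.45, 2.41, 1.61 and 2.06 CPM in BALB/c and 3.61, 3.86, 3.93, 3.02 and 3.27 CPM in C57BL6/J. All 3 h libraries lay below all 0 h libraries apart from C57BL6/J 0 h replicate 2. At 6 h the range was 1.28 to 2.58 CPM in BALB/c and 1.51 to 2.84 CPM in C57BL6/J. At 12 h BALB/c libraries had 4.60, 4.53, 1.02, 0.392 and 0.319 CPM, and C57BL6/J libraries 0.687, 0.569, 0.413, 0.594 and 0.561 CPM. Of the BALB/c libraries at 12 h, 2 thus lay above every BALB/c library of 3 h and 6 h and 3 below all of them, while the C57BL6/J libraries lay close together. Against 0 h, the log2 fold change of Dbp was -3.59 ± 0.33 at 3 h (SE, edgeR adjusted p = 9.36e-16), -4.00 ± 0.34 at 6 h (5.01e-18) and -4.85 ± 0.36 at 12 h (1.66e-21). It was lower than the 0 h mean of its strain in 10 of 10 libraries at each time. Without C57BL6/J 0 h replicate 2 the changes were -3.74, -4.16 and -5.01.

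Tef, the second activator, had the highest level per length of the 4 genes in fasted liver, as FPKM show further on. It had 280.5, 349, 342, 313 and 285 CPM in BALB/c at 0 h, and 218, 116, 308, 372 and 355 CPM in C57BL6/J. The low C57BL6/J value was again replicate 2. The 10 libraries at 3 h ran from 107 to 163 CPM (median 119) and 10 at 6 h from 90.0 to 143 CPM (median 116), with the strains mixed. At 12 h C57BL6/J had 49.9, 51.3, 61.8, 53.1 and 48.6 CPM, below every library of that strain at 6 h, and BALB/c had 171, 76.0, 59.5, 51.6 and 67.3 CPM, the first being replicate 1. The log2 fold change against 0 h was -1.21 ± 0.16 at 3 h (SE, edgeR adjusted p = 1.96e-09), -1.33 ± 0.16 at 6 h (5.92e-11) and -2.13 ± 0.17 at 12 h (3.45e-20), lower in 10 of 10 libraries each time. The difference between 6 h and 3 h was -0.12 ± 0.16 and did not pass (adjusted p = 0.738), and that between 12 h and 6 h was -0.80 ± 0.16 (4.17e-05). Within strains the 12 h against 6 h difference was -0.52 ± 0.23 in BALB/c, not called (adjusted p = 0.116, and -0.94 with 0.0023 without replicate 1 of BALB/c at 12 h), and -1.07 ± 0.23 in C57BL6/J (0.000254). Without BALB/c 12 h replicate 1 the change at 12 h was -2.34, and without C57BL6/J 0 h replicate 2 it was -2.22.

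Hlf, the third activator, first passed the test at 6 h. At 0 h it had 13.6, 49.4, 59.7, 49.8 and 87.9 CPM in BALB/c and 86.5, 61.7, 53.5, 54.1 and 65.3 CPM in C57BL6/J. The low BALB/c library was replicate 1, which also had the highest Nfil3 and the lowest Tef of its group. Hlf ran from 28.8 to 67.3 CPM at 3 h (median 53.0), from 35.2 to 50.9 CPM at 6 h (42.7) and from 16.4 to 43.5 CPM at 12 h (30.9). The 3 h libraries overlapped those at 0 h in both strains, with a log2 fold change of -0.14 ± 0.16 (SE, 95% interval -0.45 to 0.17, edgeR adjusted p = 0.576). Hlf fell by 0.45 on the log2 scale at 6 h (SE 0.16, adjusted p = 0.0211, lower in 10 of 10 libraries) and by 0.96 at 12 h (SE 0.16, 1.24e-06, 10 of 10). The call at 6 h did not hold among the 94 libraries whose names carry no added letter a (-0.36, adjusted p = 0.134), nor without replicate 3 (-0.46, 0.0654) or replicate 5 (-0.33, 0.192). That at 12 h held in each of these.

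Nfil3, the repressor, moved the other way. It had 49.7, 38.5, 31.4, 47.0 and 36.9 CPM in BALB/c at 0 h, and 20.6, 29.6, 20.5, 27.8 and 18.7 CPM in C57BL6/J, with no overlap between the strains. Nfil3 ran from 27.5 to 46.1 CPM at 3 h (median 34.7) and from 40.2 to 52.2 CPM at 6 h (median 45.5). At 12 h it had 25.4, 35.2, 59.7, 79.6 and 56.4 CPM in BALB/c, where replicates 1 and 2 lay below all others, and 59.2, 53.8, 58.3, 50.3 and 60.6 CPM in C57BL6/J. In C57BL6/J all libraries at 6 h and 12 h lay above all at 0 h, while in BALB/c the times overlapped. Against 0 h the log2 fold change was 0.21 ± 0.11 at 3 h (SE, edgeR adjusted p = 0.196), 0.56 ± 0.11 at 6 h (5.24e-05) and 0.80 ± 0.11 at 12 h (3.11e-08, higher in 8 of 10 libraries).

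Between neighbouring times, 1 of 4 members passed at 6 h against 3 h, where 8.08% of all genes did: Nfil3 rose by 0.35 ± 0.11 (SE, edgeR adjusted p = 0.0382). That call was lost whenever any 1 of the 5 replicate numbers was left out (0.31 to 0.41, all with adjusted p of 0.0608 or more). At 12 h against 6 h 3 of 4 passed (29.1% of all genes): Tef as above, Hlf at -0.51 ± 0.16 (0.00909) and Dbp at -0.85 ± 0.33 (0.0446). Dbp was not called without replicate 3, 4 or 5, and its change was 0.22 ± 0.45 in BALB/c (-0.257 without replicate 1 of 12 h, not called either way) and -1.92 ± 0.50 in C57BL6/J. Hlf was not called without replicate 4 (-0.42, 0.0536). Without BALB/c 12 h replicate 1, Nfil3 also passed at 12 h against 6 h (0.33, adjusted p = 0.0179).

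**Figure D1:**
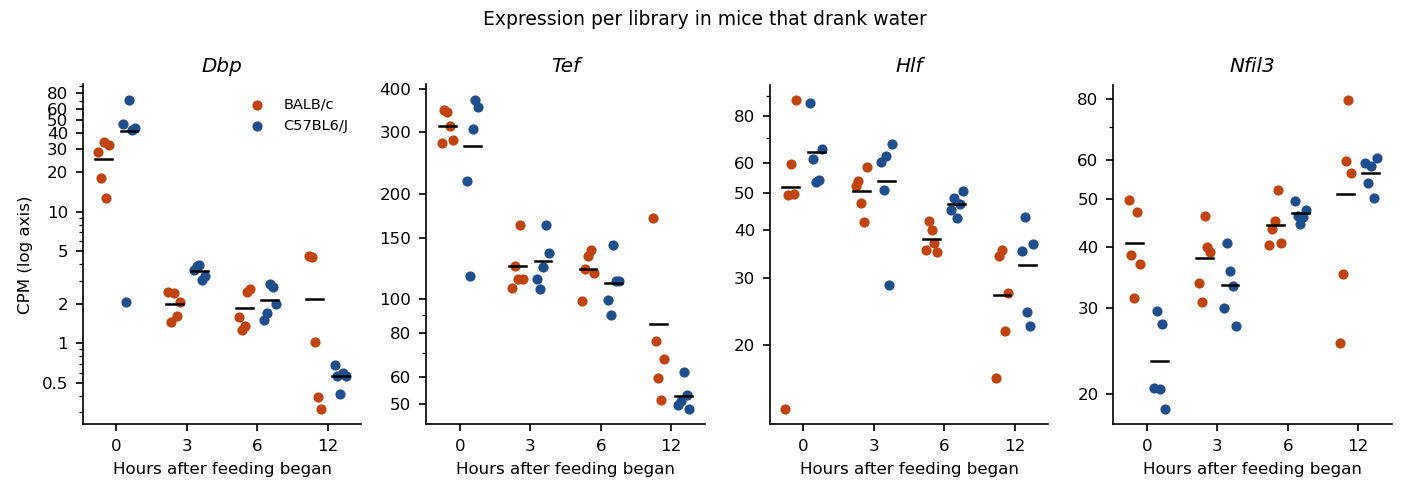
CPM on a log axis for Dbp, Tef, Hlf and Nfil3 in the water arm, with fasted mice at 0 h, 1 point for each library, BALB/c left of C57BL6/J at each time and a bar at the group mean (n = 5). All but 1 library of Dbp at 0 h lie above every later one, Tef steps down at 3 h and 12 h, Hlf moves least of the activators, and Nfil3 ends higher, with the strains apart at 0 h and BALB/c spread widely at 12 h.

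The balance of activators and repressor was read from FPKM, the deposited fragment values scaled to gene length and depth, which let the genes be compared in level. On water at 12 h the order was Nfil3 at 27.2 ± 7.41 FPKM, Tef at 16.8 ± 11.2, Hlf at 5.39 ± 1.35 and Dbp at 0.831 ± 1.09 (SD, n = 10). At 0 h Tef averaged 63.9 ± 16.8 FPKM, Dbp 17.7 ± 10.8, Nfil3 15.2 ± 5.25 and Hlf 9.81 ± 3.39 (SD, n = 10). Between neighbours in these orders the SDs of Nfil3 and Tef and of Tef and Hlf overlapped at 12 h, and those of Dbp, Nfil3 and Hlf at 0 h. Over all drinks, Tef exceeded Nfil3 in FPKM in 10 of 10 libraries at 0 h, 40 of 40 at 3 h, 27 of 40 at 6 h and 1 of 38 at 12 h. The exception at 12 h was BALB/c water replicate 1, with Tef at 47.9 and Nfil3 at 15.5 FPKM. Dbp exceeded Nfil3 in 5 of 10 libraries at 0 h, 4 of them C57BL6/J, and in none of 118 later ones. Hlf exceeded it in 2 of 10 libraries at 0 h, both C57BL6/J, and in none later.

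As a log2 ratio of FPKM + 0.1 on water, Dbp to Nfil3 averaged -0.11 ± 1.66, -3.48 ± 0.56, -4.25 ± 0.40 and -5.45 ± 1.62 at 0, 3, 6 and 12 h (SD, n = 10 each). The 3 differences from 0 h passed a two-sided exact permutation test within strain (adjusted p = 0.00113, 0.000378 and 0.000378 over 36 ratio tests). The p at 6 h and 12 h, 3.15e-05, is the smallest the design can give. Tef to Nfil3 averaged 2.08 ± 0.68, 0.71 ± 0.35, 0.23 ± 0.24 and -0.81 ± 0.97 at 0, 3, 6 and 12 h, lower than the 0 h mean of its strain in 10 of 10 libraries each time (permutation adjusted p = 0.00068, 0.000378 and 0.00068). The mean of Tef was thus above that of Nfil3 at 0 h and below it at 12 h. Hlf to Nfil3 averaged -0.67 ± 1.10, -0.94 ± 0.47, -1.57 ± 0.17 and -2.31 ± 0.51. Its difference from 0 h did not pass at 3 h (permutation adjusted p = 0.811), passed narrowly at 6 h (0.0462, and 0.174 among libraries without the added letter) and passed at 12 h (0.00373).

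**Figure D2:**
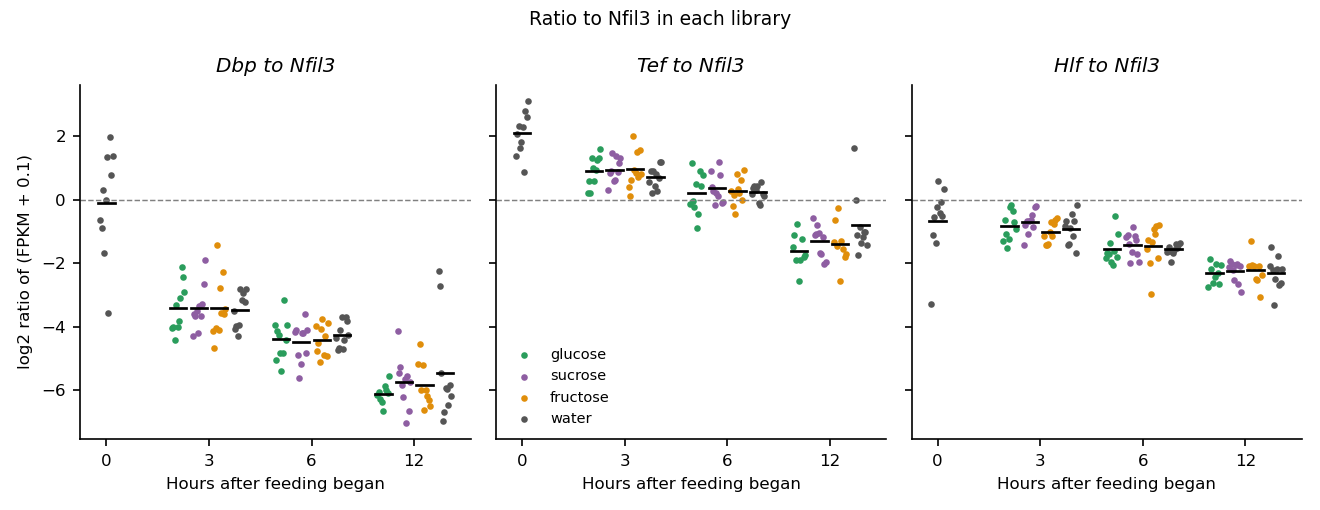
Log2 ratio of (FPKM + 0.1) of each activator to Nfil3, with 1 point for each of the 128 libraries, coloured by drink, and a bar at the mean of each drink. The dashed line marks equal levels, and the mean of Tef crosses it between 6 h and 12 h with each drink. Dbp is below it in all libraries after 0 h and Hlf in all but 2 of 128.

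Between 3 h and 12 h the members moved in the same direction with every drink, and whether the size of these changes differed between drinks was not tested. At 12 h against 3 h, all 4 members passed with glucose (27.7% of all genes did), sucrose (26.1%), fructose (26.1%) and water (29.8%). The log2 fold change of Dbp was -2.29 ± 0.36 with glucose, -1.72 ± 0.34 with sucrose, -2.26 ± 0.35 with fructose and -1.26 ± 0.33 with water (SE; edgeR adjusted p of 0.00161 or less in each). For Tef it was -1.74 ± 0.17, -1.51 ± 0.16, -1.73 ± 0.17 and -0.92 ± 0.16 in that order (1.96e-06 or less). Hlf fell by 0.76, 0.79, 0.57 and 0.82 on the log2 scale (0.00473 or less), and Nfil3 rose by 0.75, 0.74, 0.60 and 0.59 (2.99e-05 or less). The Hlf fall with fructose did not pass without replicate 5 (-0.44, adjusted p = 0.0773). Without BALB/c 12 h replicate 1, the water values were -1.499 for Dbp and -1.127 for Tef.

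No member was called between a sugar drink and water. None of 36 tests of edgeR passed (0 calls), although 5 had an unadjusted p under 0.05, and DESeq2 called 1. Of all genes, 0.19% passed with glucose, 2.92% with sucrose and 6.71% with fructose at 3 h, then 0.906%, 1.14% and 1.23% at 6 h, and 0.0651%, 0.00592% and 0.00592% at 12 h. Of those 5, 4 were at 12 h. With glucose at 12 h, Tef had 40.7, 54.2, 36.7 and 65.3 CPM in BALB/c and 22.7, 29.5, 55.2, 35.4 and 36.4 CPM in C57BL6/J, a mean of 41.8 CPM against 69.0 CPM with water. The groups overlapped in both strains. Its log2 fold change for glucose was -0.68 ± 0.17 (SE, 95% interval -1.004 to -0.348, edgeR adjusted p = 0.073), below the water mean of its strain in 8 of 9 libraries. DESeq2 gave -0.69 with an adjusted p of 0.0248. In edgeR it was also called with replicate number as a block (-0.70, adjusted p = 0.0377). The same held without the 13 libraries nearer to another time (-0.67, 0.0261). Without BALB/c water 12 h replicate 1, the edgeR value was -0.47 (adjusted p = 0.537). Tef with sucrose (-0.40 ± 0.16) and with fructose (-0.43 ± 0.17) lay in the same direction at 12 h, in 9 of 10 and 9 of 9 libraries, each with an adjusted p of 1. Without BALB/c water 12 h replicate 1 these were -0.191 and -0.218. These 3 contrasts share the water libraries. Dbp with glucose at 12 h was at -0.98 ± 0.38 (adjusted p = 0.573; -0.742 without that library) and spanned 0.379 to 0.881 CPM, within the range with water (0.319 to 4.60).

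At 3 h the largest estimates for Dbp, Tef and Nfil3 were those for fructose, and for Hlf that for sucrose (0.17 ± 0.16). Tef with fructose had a log2 difference of 0.38 ± 0.16 against water (SE, edgeR adjusted p = 0.161), being above the water mean of its strain in 9 of 10 libraries, and Dbp one of 0.48 ± 0.31 (0.455, 5 of 10). BALB/c fructose replicate 4 held the highest Dbp after 0 h in the study, 10.6 CPM, against 1.46 to 2.26 CPM in the other 4, and the highest Tef after 0 h, 284 CPM. Per3 in that library was 61.3 CPM (others 11.8 to 23.6). Without it the values were 0.24 for Tef and 0.02 for Dbp. For Nfil3 the 95% intervals of the 9 sugar effects all lay between -0.40 and 0.35, and for Hlf between -0.45 and 0.58, on the log2 scale. Those for Dbp were wider, from -1.72 at the lowest to 1.10 at the highest. Fructose against glucose gave 0 of 12 calls in edgeR, with none at an unadjusted p under 0.05 and none in DESeq2 (2.35%, 0.255% and 0% of all genes passed at 3, 6 and 12 h). None of the 27 ratio tests of a sugar against water passed, and 1 had an unadjusted p under 0.05 (Tef to Nfil3 with glucose at 12 h, -0.78, exact permutation p = 0.0255, adjusted p = 0.102). With replicate number as a block that ratio difference was -0.91 and was called. Without BALB/c water 12 h replicate 1 it was -0.522 (adjusted p = 0.159). For sucrose and fructose at 12 h the Tef to Nfil3 differences of -0.507 and -0.54 were -0.251 and -0.284 without that library.

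**Figure D3:**
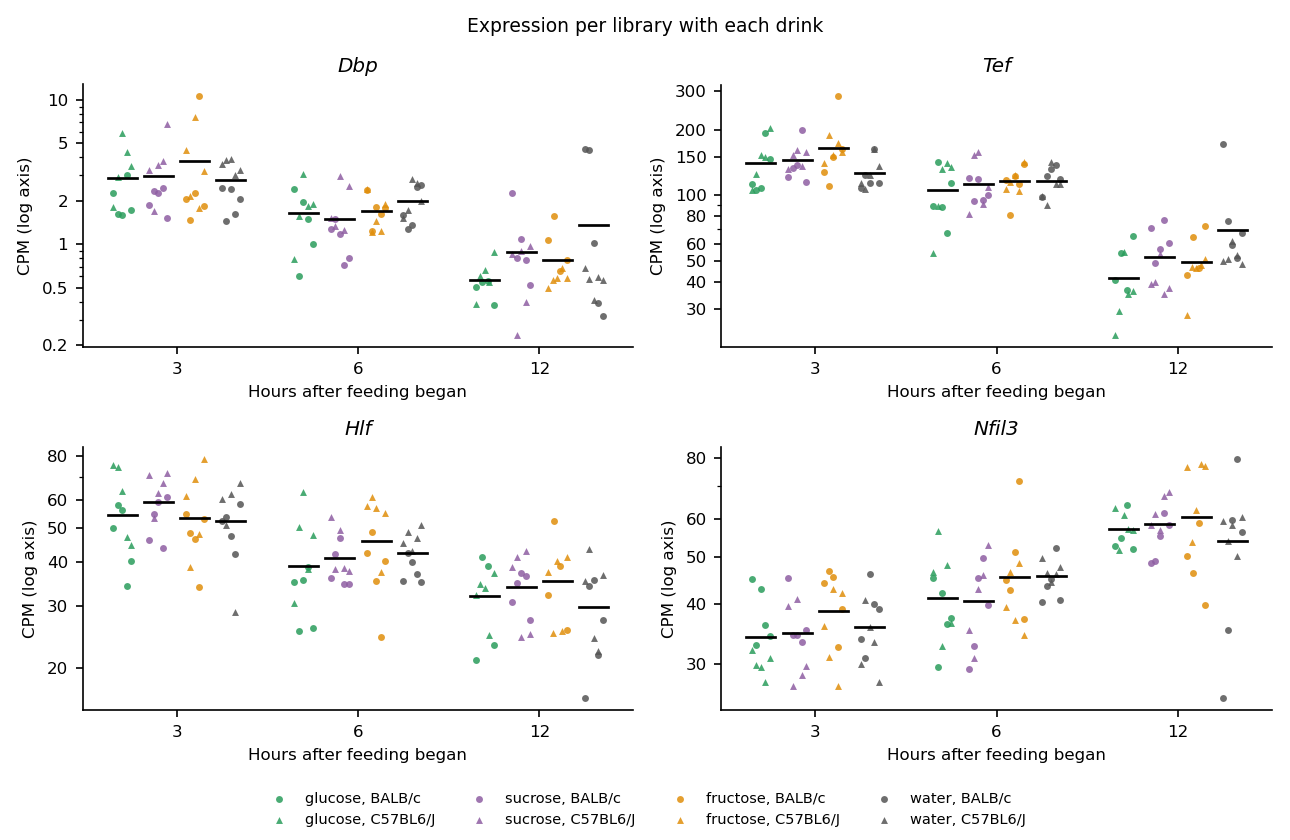
CPM on a log axis by hours of feeding and drink, with 1 point for each library (circles BALB/c, triangles C57BL6/J) and a bar at the mean of each drink. The drinks overlap at each time for all 4 genes, and the water bars for Dbp and Tef at 12 h are raised by BALB/c libraries at 4.60 CPM of Dbp and 171 CPM of Tef.

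The strains were compared on water, where Nfil3 was called before feeding, and Dbp and Tef at 12 h. The calls at 12 h did not hold in every setting. With glucose at 12 h Dbp averaged 0.497 CPM in BALB/c and 0.617 CPM in C57BL6/J. It averaged 1.095 and 0.671 CPM with sucrose, and 1.015 and 0.581 CPM with fructose, in the same order. Strain differences within a sugar were not tested. At 0 h Nfil3 averaged 40.7 ± 7.51 CPM in BALB/c and 23.4 ± 4.89 CPM in C57BL6/J (SD, n = 5 each), a log2 fold change of 0.80 ± 0.16 with every BALB/c library above every C57BL6/J library (SE, edgeR adjusted p = 9.48e-05). It was the only one of 4 members called at 0 h, where 16.3% of all genes were. At 3 h (12.9% of all genes) and 6 h (11.5%) edgeR and DESeq2 made 0 calls, and 0 members had an unadjusted p under 0.05. The strains did not overlap for Dbp at 3 h (BALB/c 1.45 to 2.45 CPM, C57BL6/J 3.02 to 3.93 CPM; log2 fold change -0.83 ± 0.44, edgeR adjusted p = 0.243) or for Hlf at 6 h (-0.31 ± 0.22, 0.485). Fitted on these libraries alone, both passed (adjusted p = 0.0189 and 0.0192). At 12 h 2 of 4 were called (12.6% of all genes). Dbp averaged 2.17 ± 2.20 CPM in BALB/c and 0.565 ± 0.0986 CPM in C57BL6/J (log2 fold change 1.93 ± 0.50, adjusted p = 0.00262), although only 3 of 5 BALB/c libraries lay above the C57BL6/J mean. Tef averaged 85.1 ± 49.0 CPM and 52.9 ± 5.24 CPM in the same order (0.69 ± 0.23, adjusted p = 0.03, higher in 4 of 5). Without BALB/c replicate 1 the difference of Dbp was 1.46 (adjusted p = 0.0476) and that of Tef 0.265 (0.565). Among libraries without the added letter neither passed (1.46 with 0.122 for Dbp, 0.65 with 0.19 for Tef), nor did they when fitted on the libraries of this contrast alone (1.91 with 0.116 for Dbp, 0.67 with 0.192 for Tef). Replicates 1 and 2 of BALB/c at 12 h, which had the highest Dbp, had the lowest Nfil3. They also had the highest Nr1d1, at 77.8 and 59.5 CPM, against 7.55 to 16.0 CPM in the other 3.

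Within strains, BALB/c had 2, 2 and 3 members called at 3, 6 and 12 h against 0 h (18.2%, 18.9% and 9.97% of all genes), and C57BL6/J 3, 3 and 4 (11.1%, 13.7% and 7.67%). Dbp and Tef passed in both strains at each time, although fitted on the libraries of the contrast alone neither passed in C57BL6/J at 3 h (Dbp -3.537 with an adjusted p of 0.0624, Tef -1.087 with 0.0846), nor did Nfil3 there (0.517, 0.141) or Hlf in BALB/c at 12 h (-0.95, 0.261). The Dbp changes were -3.65, -3.75 and -3.53 in BALB/c and -3.53, -4.25 and -6.17 in C57BL6/J. Nfil3 did not pass in BALB/c (-0.10 ± 0.16, 0.12 ± 0.16 and 0.33 ± 0.16 at 3, 6 and 12 h) and rose in C57BL6/J (0.51 ± 0.16, 1.00 ± 0.16 and 1.27 ± 0.16; edgeR adjusted p = 0.0262, 3.03e-06 and 3.05e-09). Leaving out BALB/c 12 h replicate 1 gave Nfil3 a rise of 0.50 in that strain at 12 h (adjusted p = 0.0255).

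The difference between strains in these changes was tested as an interaction, BALB/c minus C57BL6/J. At 12 h against 0 h 2 of 4 members passed, where 0.278% of all genes did: Dbp at 2.64 ± 0.65 and Nfil3 at -0.93 ± 0.23 (SE, edgeR adjusted p = 0.0407 for each). Neither passed without BALB/c 12 h replicate 1 (2.16 with 0.117 for Dbp, -0.76 with 0.0928 for Nfil3). Among libraries without the added letter neither passed, with estimates about as large (2.58 for Dbp, -0.96 for Nfil3, adjusted p = 0.164 for each). Both calls were also lost when replicate number 1, 2, 3 or 5 was left out of all groups. The same held without the filter on low counts (0.0657 for each) and when fitted on the libraries of the contrast alone. Leaving out C57BL6/J 0 h replicate 2 gave 2.95 (0.00565) and -1.03 (0.0227). At 3 h edgeR made 0 calls (0.338% of all genes), with 1 unadjusted p under 0.05 and 0 calls in DESeq2. At 6 h it also made 0 (0.302%), with 1 unadjusted p under 0.05 and 1 call in DESeq2, both Nfil3, at -0.87 ± 0.23 with an edgeR adjusted p of 0.0637 and a DESeq2 one of 0.0332. Strain by drink gave 0 of 36 calls by edgeR and by DESeq2, and 1 unadjusted p under 0.05 (Dbp with glucose at 12 h, -2.25 ± 0.75, and -1.78 without BALB/c water 12 h replicate 1). Of all genes, 0.0237%, 0.00592% and 0.00592% passed for glucose, sucrose and fructose at 3 h, 0.00592%, 0% and 0.00592% at 6 h, and 0% for each at 12 h.

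Within a time, libraries were compared after the mean of their group was taken off log2 CPM, for 6 pairs of members at 4 times. Of these 24 relations 2 passed the adjustment for Pearson's r. The permutation p takes libraries within a group as independent, although 66.4% of all libraries correlated best with those of their own replicate number. How far such sharing enters these relations was not tested. At 3 h Tef and Hlf were inversely related over 40 libraries of all 8 groups (r = -0.687, permutation p = 2e-05, adjusted p = 0.00048; Spearman's rho = -0.615, p = 0.00023, adjusted p = 0.00552). Without the 2 libraries farthest from the median of Tef r was -0.633. It was -0.771 among the 28 libraries without the added letter (adjusted p = 0.00072) and -0.518 without replicate 4 (adjusted p = 0.119). Libraries with a high Tef for their group, such as BALB/c fructose replicate 4 at 284 CPM, had a low Hlf, there 33.9 CPM. The same pair had r = -0.003 at 0 h, 0.018 at 6 h and -0.319 at 12 h, none of which passed, and the difference between times was not tested.

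At 12 h Tef and Nfil3 were inversely related over 38 libraries (r = -0.616, permutation p = 0.00283, adjusted p = 0.034; rho = -0.445, p = 0.0152, adjusted p = 0.122; -0.495 without the 2 farthest). Without replicate 1, which removes BALB/c water replicate 1, r was -0.336 (adjusted p = 0.326). Without replicate 3, 4 or 5 r was -0.653, -0.632 and -0.616, close to or beyond the value over all libraries, with adjusted p of 0.226, 0.0958 and 0.114. Among the 26 libraries without the added letter r was -0.718 (adjusted p = 0.0554). Dbp and Nfil3 at 12 h had r = -0.67 (permutation p = 0.0207, adjusted p = 0.0992) and did not pass.

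**Figure D4:**
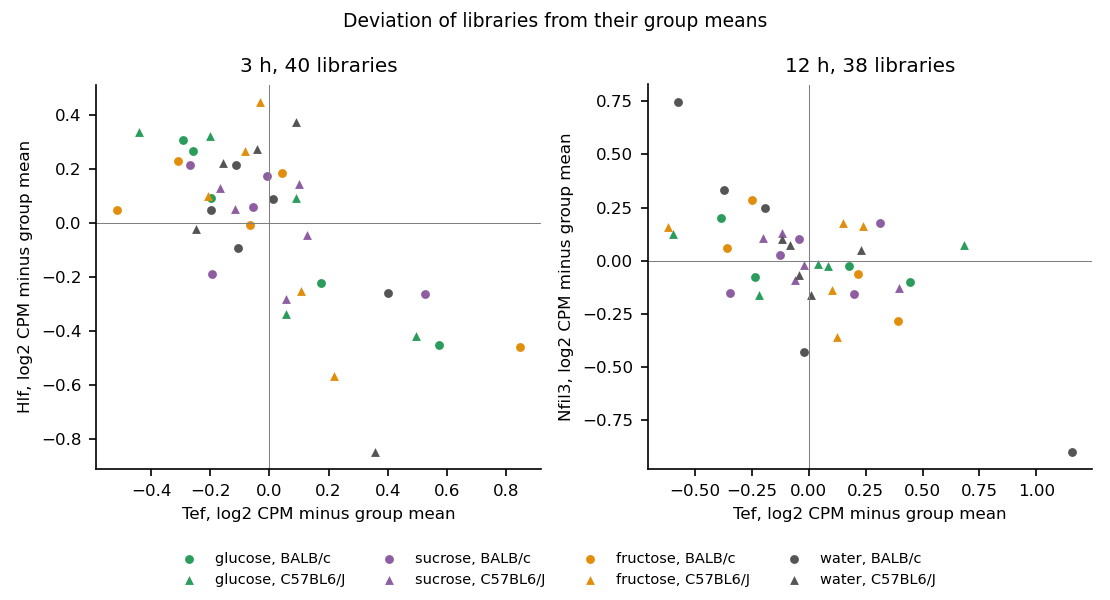
Log2 CPM minus the group mean, with 1 point for each library, coloured by drink, circles for BALB/c and triangles for C57BL6/J: Tef against Hlf in 40 libraries at 3 h (r = -0.687) and Tef against Nfil3 in 38 libraries at 12 h (r = -0.616). The circle farthest right among the 12 h libraries is BALB/c water replicate 1.

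Genes whose level ran with each member were ranked by Pearson's r between log2 group means over the 26 groups, among genes with a mean of at least 5 CPM. These are descriptions: the groups share strains, drinks and times, and no p is given. The closest to Dbp were Rhbdd2 (r = 0.916), Gys2, the liver glycogen synthase (0.912), Tef (0.908), Ciart, a repressor of the clock loop (0.905), and Coq10b (0.897). The most opposed were Cldn1 (-0.96), a tight junction protein, Arntl (-0.956) and Tars (-0.925), the threonyl-tRNA synthetase. For Tef the closest was Cyp2a5 (0.958), a cytochrome P450 known as a PAR bZIP target in mouse, then Gde1 (0.934), Rbp4, the plasma retinol carrier (0.933), Per3 (0.921) and Nampt, of NAD synthesis (0.92). The bile salt pump Abcb11 (-0.93), Lrp5 (-0.928) and Arhgap24 (-0.928) were most opposed to it. Hlf was closest to Homer2 (0.933), the lipase Lipg (0.926), Qpctl (0.903), Cdv3 (0.899) and Lrp4 (0.896), and most opposed to Insig2 (-0.919), Mpzl1 (-0.905) and Pld1 (-0.903). Mpzl1 was also the closest to Nfil3 (0.907), followed by Clpx (0.903), Pxdn (0.882), Eps8l2 (0.879) and Asap2 (0.872). Ipo5 (-0.882), Abcf1 (-0.874) and Tpcn1 (-0.861) were most opposed to Nfil3. Among the members, Nfil3 ran against Dbp (-0.785), Tef (-0.834) and Hlf (-0.802), while Hlf had r = 0.752 with Tef and 0.698 with Dbp. Without the 2 groups at 0 h, r of Hlf was 0.781 with Tef and 0.838 with Dbp, so that order turned round, and r of Dbp and Nfil3 was -0.882.

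On water 13, 11 and 12 of 15 genes of the core clock loop and its nuclear receptors changed at 3, 6 and 12 h against 0 h. Of these, 6 rose and 7 fell at 3 h (12.7% and 12.7% of all genes did), 5 rose and 6 fell at 6 h (13.9% and 14.9%), and 3 rose and 9 fell at 12 h (8.31% and 9.3%). The list's median log2 fold change was -0.032, -0.165 and -1.16 (all genes -0.01, -0.002 and -0.007). Arntl, the BMAL1 gene upstream of Dbp, rose by 1.42 ± 0.16, 2.09 ± 0.16 and 2.35 ± 0.16 (SE, edgeR adjusted p of 1.68e-12 or less), while Dbp fell. Nr1d1 (REV-ERB alpha), a repressor of Nfil3, fell at 3 h (-2.23 ± 0.29) and 6 h (-2.92 ± 0.30) and stood at 0.41 ± 0.27 at 12 h, not called, when the mean of Nfil3 was at its highest. That 12 h estimate includes BALB/c replicates 1 and 2 at 77.8 and 59.5 CPM of Nr1d1, which had the lowest Nfil3 of their group. Replicates 3, 4 and 5 of that group had 7.55 to 16.0 CPM. The relation of Nr1d1 to Nfil3 was not tested. Nr1d2, the partner of Nr1d1, fell at all 3 times (-2.18, -2.98 and -1.365). Rora, of the ROR receptors that act at the same half-site as REV-ERB, fell at 3 h (-0.55 ± 0.16) and was not called at 6 h (-0.165) or 12 h (-0.11). Per2 rose at 3 h (0.83 ± 0.24) and fell by 12 h (-3.41 ± 0.27), and Per3 and Ciart fell at each time, to -4.12 ± 0.30 and -4.33 ± 0.36 at 12 h. Npas2, a partner of BMAL1, averaged 9.75 CPM at 12 h and 0.0969 CPM at 0 h (log2 fold change 6.54 ± 0.50). Between a sugar and water, 7 calls were made over this list in 9 contrasts. With fructose at 3 h 3 genes rose and 1 fell (6.71% of all genes passed), and with sucrose at 3 h 2 rose (2.92%). With glucose at 6 h 1 fell (0.906%). These calls included Bhlhe40, a repressor of the loop, at 0.99 with sucrose and 0.65 with fructose at 3 h.

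**Figure D5:**
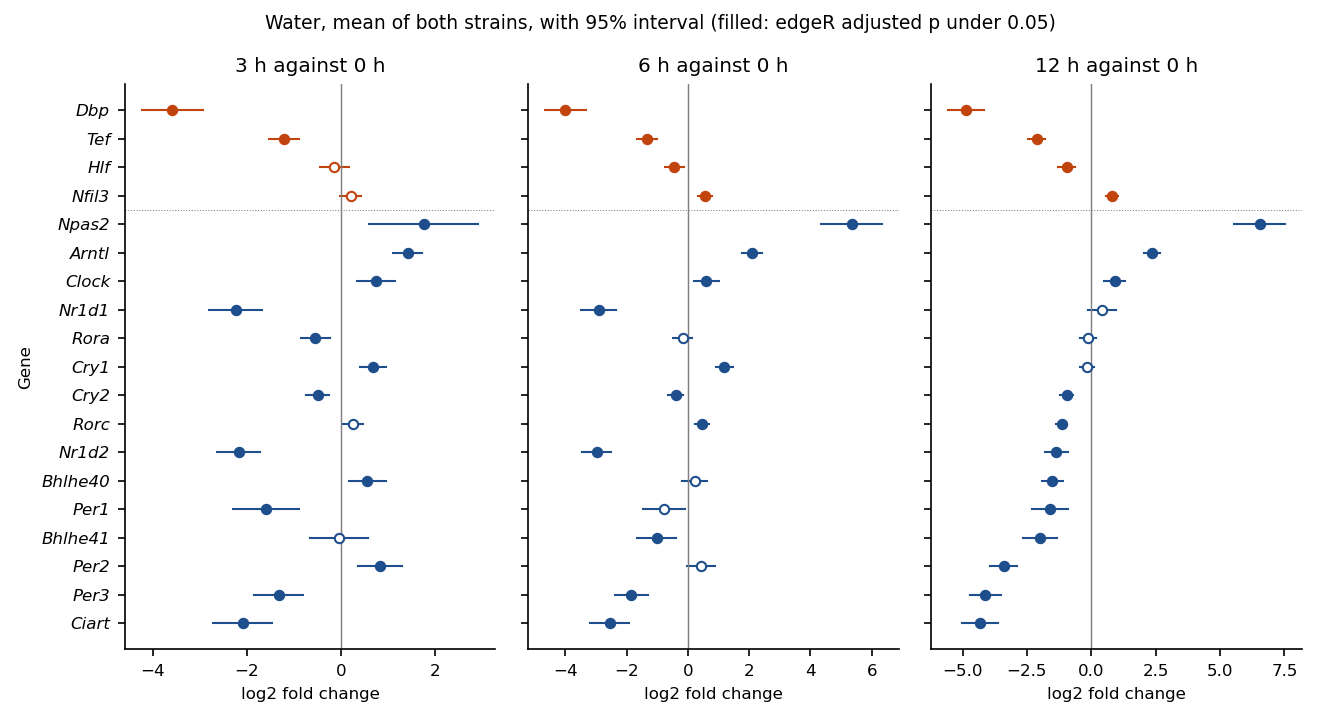
Log2 fold change on water against 0 h at 3, 6 and 12 h, as the mean of both strains with its 95% interval, for the 4 members (top, orange) and 15 core clock genes (blue, ordered by the 12 h value). Filled points passed edgeR at an adjusted p of 0.05. Arntl, Npas2 and Clock are right of 0 at each time with Nfil3, while Dbp and Tef are left of it with Per3, Ciart and Nr1d2.

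Of 10 liver genes tied to PAR bZIP factors or NFIL3 in mouse, none rose on water against 0 h, and 4, 6 and 4 fell at 3, 6 and 12 h, where 12.7%, 14.9% and 9.3% of all genes fell. The median log2 fold change was -0.599, -0.988 and -0.578 (all genes -0.01, -0.002 and -0.007). The call of Fgf21 at 3 h (-1.38 ± 0.54) lay at the threshold. Cyp2a5 was at -0.43 ± 0.18 at 3 h, not called, and fell to -1.01 ± 0.18 at 6 h and -2.32 ± 0.19 at 12 h. It is nearly identical to Cyp2a4, so the counts of both are uncertain. Alas1, the first enzyme of haem synthesis, stood at 0.09 ± 0.32 at 3 h and fell by 1.99 at 6 h and 2.83 at 12 h on the log2 scale (SE 0.33 and 0.34). Por, the electron donor of cytochromes P450, fell most at 6 h (-2.46 ± 0.25) and stood at -1.67 ± 0.24 at 12 h. The nuclear receptor Nr1i3 (CAR) fell at 3 h (-0.72 ± 0.15) and 6 h (-0.97 ± 0.15) and was not called at 12 h (-0.28 ± 0.15), and Ppara fell at all 3 times (-0.95, -1.68 and -1.13). Alb and Cyp7a1 were not called at any time. Fgf21, a hormone gene that NFIL3 represses in mouse hepatocytes, was higher with each sugar than with water at 3 h (3.22 ± 0.54 with glucose, 4.20 ± 0.55 with sucrose and 3.77 ± 0.54 with fructose) and at 6 h (2.04, 2.78 and 2.02), where Nfil3 was not called. Alas1 was lower with sucrose (-1.19 ± 0.32) and fructose (-0.97 ± 0.32) at 3 h. Of the 10 genes 1 rose with each sugar at 3 h and at 6 h, and 1 fell with sucrose and with fructose at 3 h. None was called at 12 h. Of all genes 0.19%, 2.92% and 6.71% passed with glucose, sucrose and fructose at 3 h, and 0.906%, 1.14% and 1.23% at 6 h. A part of Nfil3 in the Fgf21 values was not tested.

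Of 6 genes of the C/EBP family, bZIP factors that can bind related elements, 1 rose and 2 fell at 3 h, 1 and 2 at 6 h, and none and 3 at 12 h. Of all genes 12.7%, 13.9% and 8.31% rose and 12.7%, 14.9% and 9.3% fell, so 1 of 6 rising is near the background. The family's median log2 fold change was -0.107, -0.12 and -0.578 (all genes -0.01, -0.002 and -0.007). Cebpb fell at each time (-1.56 ± 0.22, -1.23 ± 0.22 and -1.42 ± 0.22) with Cebpd (-1.79, -1.29 and -1.16). Ddit3 (CHOP), a stress-induced member, rose by 1.48 ± 0.20 at 3 h and fell by 0.89 at 12 h on the log2 scale.

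Both Dbp and Tef overlap a gene on the other strand, and the sources used here do not say whether counting used the strand of a read. Sphk2, a sphingosine kinase gene, shares 689 bases with the 3' end of Dbp (chromosome 7, 45709467 to 45710155). It was at -0.73 ± 0.15 at 3 h, -0.46 ± 0.15 at 6 h and 0.025 ± 0.15 at 12 h against 0 h on water (SE), with a mean of 65.7 CPM at 12 h, when Dbp was at 1.37 CPM. Gm17597, a lincRNA, shares 193 bases with the 5' end of Tef and averaged at most 0.552 CPM in the 4 times on water, against 69.0 CPM or more for Tef.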

How the data were processed

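Read counts per gene were deposited by the authors without normalization, together with FPKM that equal each count divided by gene length and library total, so the FPKM are not an independent measurement. Per the submitters' processing notes, CASAVA, STAR 2.5, HTSeq 0.6.1 and DESeq2 were used with mm10 (GRCm38), with no role or order given. For tests on counts, edgeR 4.0.16 ran under R 4.3.3: filterByExpr over 26 groups, TMM scaling, 1 mean per group over all 128 libraries, and robust quasi-likelihood tests with Benjamini-Hochberg adjustment within each contrast. Intervals are at the 95% level. A library counts as higher or lower by its CPM against the comparison group's mean in its own strain. Ratios used log2 of FPKM + 0.1 and an exact permutation within strain, and correlations 100000 resamples. The edgeR steps were tested on simulated data. DESeq2 1.42.0 and other settings were tried as alternatives. Members and gene lists were chosen with earlier results of these data known. Genes named beside the members are those most like or unlike each in pattern, listed genes with the smallest p on water together with a fixed panel, and overlapping genes; listed genes named for a sugar drink were chosen after their values were seen. The names of 34 libraries end in an added letter a, of unstated meaning. The main tests did not adjust for it. It entered only alternative settings, as a covariate or by leaving those libraries out. Value columns left without use numbered 0.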

Additional observations from a re-analysis of the deposited data

Results flagged for a closer look

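In 5 of 104 sets of 4 or 5 libraries (each member in each group) 1 library stood far from the rest of its group, which chance gives in about 1 of 20. Dbp was 2.05 CPM in C57BL6/J water 0 h replicate 2 (others 42.0 to 70.9) and 10.6 CPM in BALB/c fructose 3 h replicate 4 (others 1.46 to 2.26). Tef was 28.1 CPM in C57BL6/J fructose 12 h replicate 1 (others 46.2 to 50.9). Hlf was 37.5 CPM in C57BL6/J fructose 6 h replicate 4 (others 55.2 to 61.2). Nfil3 was 45.2 CPM in BALB/c sucrose 3 h replicate 1 (others 33.4 to 35.3).

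The change on water at 12 h against 0 h differed between the strains, BALB/c minus C57BL6/J, for Dbp (2.64 on the log2 scale) and for Nfil3 (-0.93), each with an edgeR adjusted p of 0.0407. Neither passed without BALB/c water 12 h replicate 1 (2.16 for Dbp, -0.76 for Nfil3), nor when replicate number 1, 2, 3 or 5 was left out of all groups.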

How the results depend on the processing

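Of 3680 values recomputed over 248 results and 19 settings, 3590 kept their direction and their side of the threshold, 67 lost and 23 gained a call, and 0 changed direction. The causes were not tested. Values are log2 fold changes or correlations, and calls are at an adjusted p of 0.05.

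The calls lost without a filter on low counts were Nfil3 at 6 h against 3 h (0.352), Dbp at 12 h against 6 h (-0.842) and the strain by time terms at 12 h (Nfil3 -0.933, Dbp 2.640). The name suffix as a covariate ended Dbp at 12 h against 6 h (-0.832) and called Hlf at 12 h against 6 h in C57BL6/J (-0.605). The libraries without the suffix ended Hlf at 6 h against 0 h (-0.363), Nfil3 at 6 h against 3 h (0.361), the strain differences at 12 h (Tef 0.649, Dbp 1.455), strain by time at 12 h (Nfil3 -0.964, Dbp 2.576), the Hlf to Nfil3 ratio at 6 h (-0.851) and the correlation of Tef and Nfil3 at 12 h (-0.718), and gave one of Dbp and Hlf at 6 h (0.640). Without the 13 libraries nearer to another time, Hlf at 6 h (-0.401) and its ratio (-0.895) were lost and Tef with glucose at 12 h was called (-0.670). Fitting the libraries of a contrast alone ended Hlf at 6 h (-0.456), Dbp at 12 h against 6 h (-0.820), the strain differences at 12 h (Tef 0.670, Dbp 1.910) and strain by time at 12 h (Nfil3 -0.948, Dbp 2.634), and called strain differences of Dbp at 3 h (-0.848) and Hlf at 6 h (-0.310). Within strains it ended Hlf at 12 h against 0 h in BALB/c (-0.950) and Tef (-1.087), Nfil3 (0.517) and Dbp (-3.537) at 3 h against 0 h in C57BL6/J. In C57BL6/J it called Hlf at 6 h against 0 h (-0.477) and at 12 h against 6 h (-0.521), and Nfil3 at 6 h against 3 h (0.474). DESeq2 called Tef with glucose at 12 h (-0.686) and strain by time of Nfil3 at 6 h (-0.878).

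Chosen after seeing the data were the correlations over fewer libraries and 3 settings that leave out 1 library. Without C57BL6/J water 0 h replicate 2, strain by time of Nfil3 at 6 h was called (-0.973). Without BALB/c water 12 h replicate 1 it was called as well (-0.874), as were Nfil3 at 12 h against 6 h (0.327) and, in BALB/c, Nfil3 at 12 h against 0 h (0.504) and Tef at 12 h against 6 h (-0.942), while Tef between strains (0.265) and strain by time at 12 h (Nfil3 -0.763, Dbp 2.164) were lost.

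Leaving out each replicate number gave these ranges: Hlf at 6 h against 0 h -0.509 to -0.331, Nfil3 at 6 h against 3 h 0.312 to 0.407, and at 12 h against 6 h Hlf -0.572 to -0.422, Nfil3 0.190 to 0.328 and Dbp -1.188 to -0.608. Strain by time of Nfil3 at 6 h ran from -0.978 to -0.699. Tef with glucose at 12 h ran from -0.817 to -0.379, its ratio to Nfil3 from -0.964 to -0.426, and Hlf at 12 h against 3 h with fructose from -0.677 to -0.441. Between strains at 12 h Tef ran from 0.231 to 0.851 and Dbp from 1.446 to 2.200, and strain by time at 12 h from -1.228 to -0.636 for Nfil3 and from 2.224 to 2.998 for Dbp. Neither strain by time term at 12 h was called without replicate 1, 2, 3 or 5. The Hlf to Nfil3 ratio at 6 h ran from -1.065 to -0.740, the correlation of Tef and Hlf at 3 h from -0.732 to -0.518, and that of Tef and Nfil3 at 12 h from -0.726 to -0.336. The call of the Hlf to Nfil3 ratio at 6 h was lost without replicate 2, 3, 4 or 5.

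Replicate numbers did not pair the samples by the rule used, as 45.3% of 1576 pairs with the same number correlated above 0.1. The median was 0.0829 (other numbers -0.0224, lowest with the same number -0.427). Even so, 66.4% of libraries correlated best with their own number out of 5, so part of the spread went with the number. The main tests did not model this sharing. With the replicate block, Dbp at 12 h against 6 h (-0.818) and the Hlf to Nfil3 ratio at 6 h (-0.906) were no longer called, and Tef with glucose at 12 h (-0.700) and its ratio to Nfil3 (-0.910) were. No other call of the gene or ratio tests changed with the block, and the correlations were not run with it. After feeding Dbp had as few as 5 reads in a library, which limits the precision of its differences.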
